A study of Mus musculus with 22 samples.

Results

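Immune inhibition was followed through 10 genes across the bladders of a mouse carcinogenesis study. They were picked by name, though with earlier results of these data known. They are the ligands Cd274, Pdcd1lg2 and Cd276, the receptors Pdcd1, Ctla4, Lag3, Tigit and Havcr2, and the regulatory T cell genes Foxp3 and Il2ra. On the array these 10 genes had 11 probes, out of 22911 genes with a symbol and 56605 probes in all. Each gene is given by its brightest probe, and only Lag3 had a further one.

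Checkpoint receptors sit on activated T cells and dampen them when a ligand on a neighbouring cell engages them. PD-1, made from Pdcd1, binds PD-L1 (Cd274) and PD-L2 (Pdcd1lg2), and interferon gamma is the best known inducer of PD-L1. CTLA-4 competes with CD28 for the co-stimulatory ligands CD80 and CD86. LAG-3, TIGIT and TIM-3 (Havcr2) are further brakes, and TIM-3 is also made by macrophages and dendritic cells. Regulatory T cells are defined by the transcription factor Foxp3 and carry much of the high-affinity interleukin-2 receptor chain CD25 (Il2ra). B7-H3 (Cd276) belongs to the same ligand family as PD-L1 and is made by epithelial, stromal and myeloid cells, with a receptor that is not settled. Blocking PD-1 or PD-L1 is a treatment of human bladder cancer.

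The study read total RNA of 22 bladders, 1 array each with a single dye, in 8 groups, all at 8 months of age. In 7 groups, with 19 arrays, the mice had drunk BBN, a nitrosamine that causes bladder cancer, for 24 weeks. The Krt5-Cre group (2 arrays) carried Krt5-CreERT2, a tamoxifen-activated Cre recombinase under a promoter of basal urothelial cells, and the Upk2-Cre group (2 arrays) carried Upk2-CreERT2, under a promoter of luminal cells. Both also carried the LSL-RFP reporter allele and had tamoxifen. Trp53R270H/+ was added in Krt5-Cre R270H (3 arrays) and Upk2-Cre R270H (2 arrays), and Trp53R172H/+ in Krt5-Cre R172H (4 arrays) and Upk2-Cre R172H (3 arrays), with the same tamoxifen and BBN. The Trp53 het group (3 arrays) had BBN but no Cre and no tamoxifen, and its title names Trp53+/- where its genotype entry names Trp53R270H/+. The normal group (3 arrays) was wild type, with neither tamoxifen nor BBN. Its tissue is labelled urothelium, while the protocol speaks of whole bladders for all samples. These groups are small, and the Cre acts in part of the urothelium only, whereas by the protocol RNA came from the whole organ. Whether normal and BBN tissue were taken alike cannot be told from the labels.

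Levels are log2 of the processed spot signal minus the 75th percentile of the same array, so 0 is that percentile of the array. A spot is called well above background where the scanner software marked it so. Arrays of slides 1 and 2 were read on 1 scanner and those of slides 3 and 4 on another. On the first scanner (11 BBN arrays) 42.4% to 57.2% of spots were well above background and the lowest such signal lay between -4.48 and -2.69. On the second (8 BBN and the 3 normal arrays) the share was 56.3% to 63.2% and the lowest signal -5.81 to -5.00, so dim genes could be read further down there. Slide 4 held the normal arrays and nothing else, so slide 4 and the normal state cannot be told apart. For 11 of the 22 arrays, all 3 normal and 8 BBN, Xist and the Y-linked genes read as the sex opposite to the labelled one. One animal code was shared by both Upk2-Cre arrays, and another by Trp53 het 1 and 2. Without the 8 BBN arrays in question, and in another fit with arrays of a shared code averaged, 7 members were called between BBN and normal bladders, the same number as over all arrays. There were 6 with the labelled sex as a covariate and 5 with a covariate of the measured Xist and Y-linked levels. The share of all tested genes called in these fits is not given.

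T cell markers were present. Of the 12 T cell lineage genes, 12 were tested, and on BBN arrays each was well above background at least once, whereas Cd8a was not on any normal array. Their summed linear level ran from 8.13 to 22.2 on BBN arrays and from 3.93 to 5.73 on normal ones. The 6 urothelial markers went the other way, with sums of 22.3 to 164 against 857 to 1127. In such bulk samples, fewer cells of a type and less RNA per cell cannot be told apart.

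RefSeq promoter windows, the 250 bases before a gene start in the GRCm38.p6 build, were held for 9 of the 10 members (10 windows, because Foxp3 has 2 starts). A search covered 5 short motifs on both strands, in 32851 windows of the same length. They were an ISRE-like motif (GAAA, any 2 bases, GAAA), present in 2.98% of all windows, a GAS-like motif, TTCNNNGAA (7.02%), a RUNX-like motif, TGTGGT (14.05%), an NFAT-like motif, TGGAAA (18.6%), and a kappaB-like motif (GGGA, any 4 bases, CC), present in 17.6%. Of the 9 members, 6 held at least 1 match, and the share of all windows with any of the 5 motifs was not counted. The windows below are those of the PD-1 ligands, which are adjacent genes on chromosome 19 with 0 protein-coding genes between them and of which Pdcd1lg2 but not Cd274 passed the test below, and of Havcr2 and Foxp3, the members of smallest p. Capitals mark motif matches, and each window is written 5′ to 3′ on the strand of its gene.
Cd274, chr19:29367188-29367437, plus strand: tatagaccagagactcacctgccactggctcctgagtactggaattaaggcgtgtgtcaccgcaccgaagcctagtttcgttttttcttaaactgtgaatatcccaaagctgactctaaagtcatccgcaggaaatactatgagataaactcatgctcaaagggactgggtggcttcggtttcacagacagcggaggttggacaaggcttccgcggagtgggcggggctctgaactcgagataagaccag
Pdcd1lg2, chr19:29410669-29410918, plus strand: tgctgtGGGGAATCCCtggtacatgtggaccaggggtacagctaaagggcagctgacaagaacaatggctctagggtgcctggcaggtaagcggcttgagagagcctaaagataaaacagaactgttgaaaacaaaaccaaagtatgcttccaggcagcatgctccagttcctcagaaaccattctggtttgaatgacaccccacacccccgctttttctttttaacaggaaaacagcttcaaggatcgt
Havcr2, chr11:46454681-46454930, plus strand: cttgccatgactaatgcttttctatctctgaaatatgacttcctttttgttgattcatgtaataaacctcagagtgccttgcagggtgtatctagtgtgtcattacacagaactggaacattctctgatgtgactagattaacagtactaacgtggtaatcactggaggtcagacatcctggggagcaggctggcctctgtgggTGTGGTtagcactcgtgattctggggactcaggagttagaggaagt
Foxp3, chrX:7580233-7580482, plus strand: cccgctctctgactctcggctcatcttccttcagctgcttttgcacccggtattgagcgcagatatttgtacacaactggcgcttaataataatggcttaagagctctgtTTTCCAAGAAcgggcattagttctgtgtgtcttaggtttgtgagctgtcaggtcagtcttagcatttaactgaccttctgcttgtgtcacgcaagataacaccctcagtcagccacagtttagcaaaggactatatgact

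The Cd274 window held none of the 5 motifs, as did those of Pdcd1, Cd276 and the other Foxp3 start. Pdcd1lg2 held a kappaB-like match that began 244 bases before its start. In Havcr2 the capitals are a RUNX-like match 46 bases upstream. In Foxp3 a GAS-like match at 139 bases and an NFAT-like match at 140 overlap in 1 run. Beyond these, Il2ra held a kappaB-like match at 201 bases, Tigit a RUNX-like match at 140 and Ctla4 an NFAT-like match at 144. A match is a description of the letters, and a window without one says only that those letters are not in it.

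BBN against normal bladders was the comparison in which these genes moved. Of the 9 members that could be tested, 7 were higher with BBN and 0 were lower, by limma at an adjusted p of 0.05 or under. Of all 17404 tested genes, 42.7% were called in either direction and 23.7% were higher. The members' median difference was 2.56 on the log2 scale, against 0.13 over all tested genes. For 4 of the 9, Foxp3, Lag3, Pdcd1lg2 and Tigit, no normal array was well above background. Testing needed 2 of 22 arrays well above background, so these 4 entered it through BBN arrays alone. They could thus hardly be called lower. With these 4 genes at their bound the median was 1.37. That value is rough, because most BBN readings of Pdcd1lg2 and Tigit, and some of Foxp3 and Lag3, were not well above background either. The median was 1.35 with normexp background correction, against 0.23 over all genes, and 1.95 on the normals' scanner. Foxp3, Havcr2, Lag3, Cd276, Pdcd1lg2, Pdcd1 and Tigit rose. Cd274 and Il2ra did not pass the test, and Ctla4 was not well above background on any of the 22 arrays and so was not tested. In 4 of the 9, Pdcd1lg2, Lag3, Havcr2 and Foxp3, all 19 BBN arrays lay above all 3 normal arrays, as they did for 13.6% of tested genes.

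**Figure D1:**
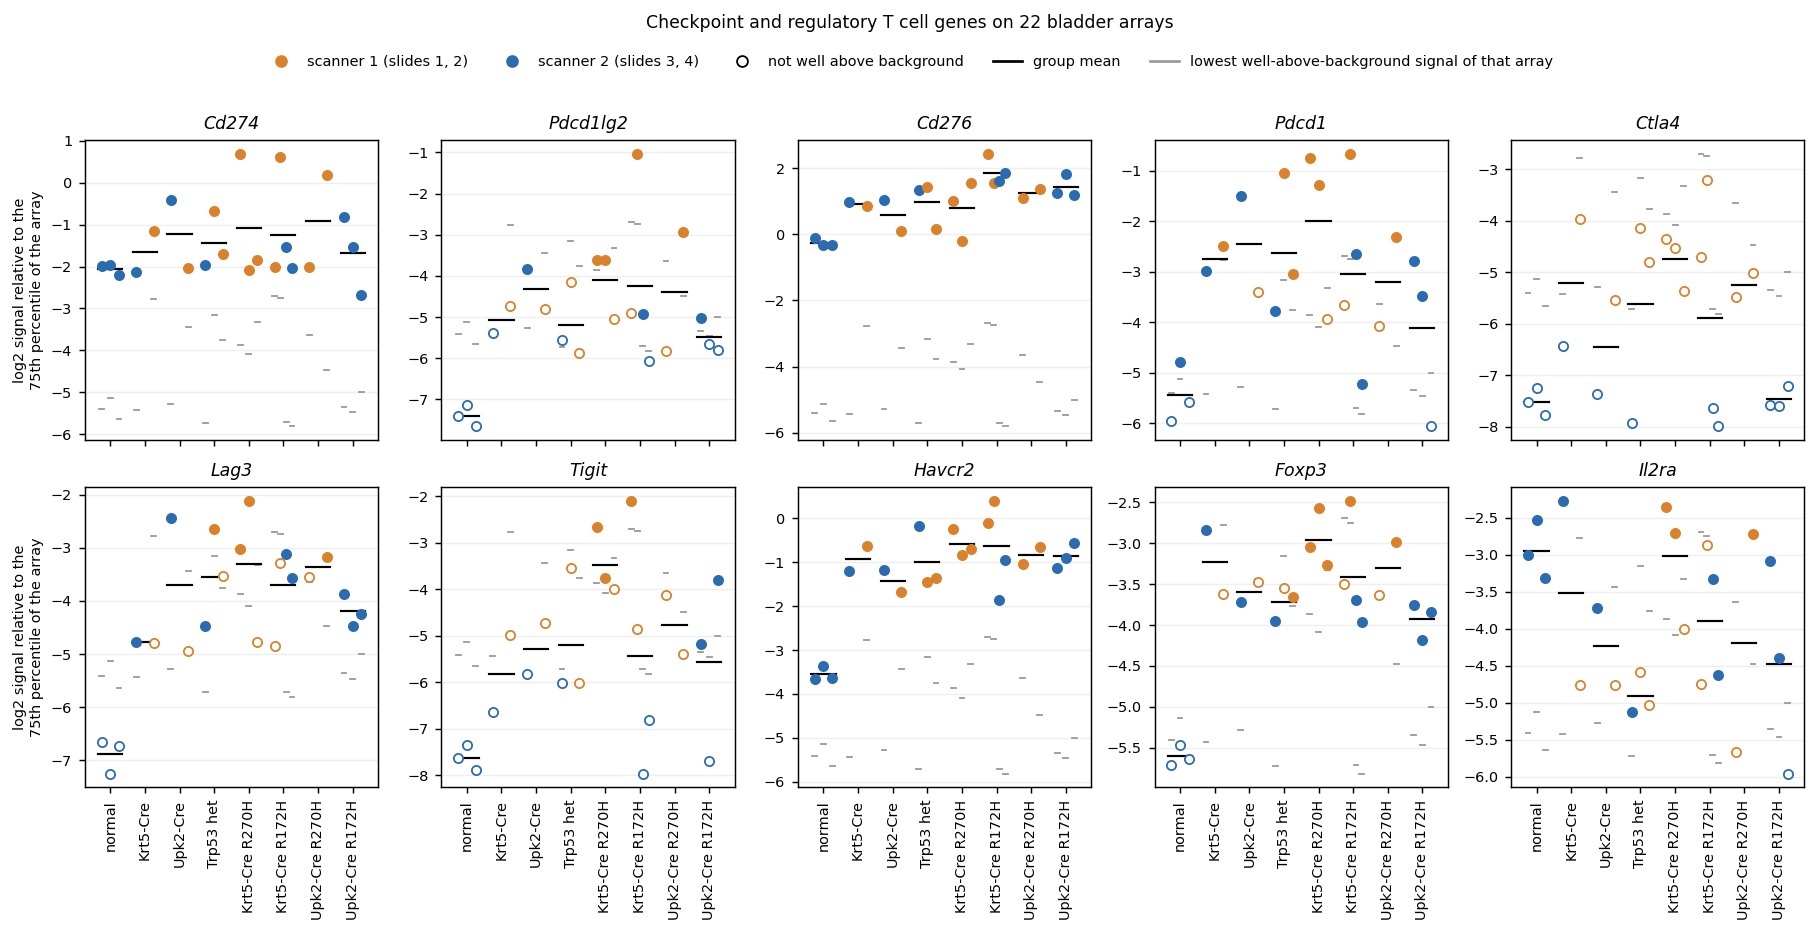
Level of each of the 10 genes on every array (y axis, log2 relative to the 75th percentile of the array) by group (x axis); points are arrays, coloured by scanner and open where the spot was not well above background, black lines are group means and grey ticks the lowest well-above-background signal of each array. Havcr2, Foxp3, Lag3 and Pdcd1lg2 lie above the 3 normal arrays on all 19 BBN arrays, while Cd274 spreads from -2.68 to 0.69 within BBN and Ctla4 is open throughout.

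Among the ligands, Cd274 was well above background on all 22 arrays. The normal arrays read -1.99, -1.96 and -2.20 for Cd274. BBN arrays ran from -2.68 to 0.69 with a median of -1.70. So the normal arrays sat close together near the bottom of the BBN range, and 12 of the 19 BBN arrays were above all of them. The difference was 0.73 ± 0.63 (SE; 95% interval -0.60 to 2.07), with a limma adjusted p of 0.358. It was 0.46 ± 0.38 on the arrays of the normals' scanner, 0.36 ± 0.66 with a covariate of the measured Xist and Y-linked levels and 1.49 ± 0.65 with 1 of the labelled sex (adjusted p of 0.0857), and was called in none of these. The upper end was formed by Krt5-Cre R270H 1 at 0.69, Krt5-Cre R172H 2 at 0.62, Upk2-Cre R270H 2 at 0.18, Upk2-Cre 1 at -0.41 and Trp53 het 2 at -0.67. Those 5 arrays came from 5 groups, so the spread of Cd274 lay within groups. Krt5-Cre R270H held 0.69 beside -2.09 and -1.84, and its mean was -1.08 ± 1.54 (SD, n = 3). Krt5-Cre R172H held 0.62 beside -2.01, -1.53 and -2.02, with a mean of -1.24 ± 1.26 (SD, n = 4). Upk2-Cre R270H had 1 array at 0.18 and 1 at -2.02. The 3 normal arrays differed far less, with a mean of -2.05 ± 0.13 (SD, n = 3). In the remaining groups, Krt5-Cre read -2.13 and -1.15, and Upk2-Cre -0.41 and -2.04. Trp53 het read -1.96, -0.67 and -1.70. Upk2-Cre R172H read -0.82, -1.54 and -2.68, and held the lowest array of all.

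Pdcd1lg2, the other PD-1 ligand, was dim. Normal arrays read -7.40, -7.14 and -7.66 and none was well above background, so those values are below what the array measures. BBN arrays ran from -6.08 to -1.03 with a median of -4.94, and 7 of 19 were well above background. The highest was Krt5-Cre R172H 2, followed by Upk2-Cre R270H 2 at -2.94, and Krt5-Cre R270H 1 and 2 at -3.62 and -3.61. The former 2 and Krt5-Cre R270H 1 were also among the highest arrays for Cd274. The fitted difference was 2.72 ± 0.74 (SE) with a limma adjusted p of 0.00791. Such a fitted value is no size when 1 side is below background. No bound is given either, because most BBN readings, on the normals' scanner all but 3 of 8, were not well above background. A block for the scanner gave 2.10 ± 0.82 with a limma adjusted p of 0.0648, so that call was lost.

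Cd276 was bright in every bladder. Normal arrays read -0.11, -0.33 and -0.32, and BBN arrays ran from -0.19 to 2.44 with a median of 1.25. All BBN arrays but 1, Krt5-Cre R270H 2 at -0.19, were above all normal arrays. The difference was 1.37 ± 0.32 (SE) with a limma adjusted p of 0.00307. It was 1.56 ± 0.18 on the arrays of the normals' scanner and 1.51 ± 0.38 with the scanner as a block. The Krt5-Cre R172H arrays were the highest group for Cd276, at 2.44, 1.56, 1.61 and 1.86. Upk2-Cre R172H followed at 1.25, 1.82 and 1.18. Krt5-Cre R270H spread from -0.19 through 1.02 to 1.54. Means of the BBN groups ran from 0.58 ± 0.66 (SD, n = 2) in Upk2-Cre to 1.87 ± 0.41 (SD, n = 4) in Krt5-Cre R172H.

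Of the receptors, Havcr2 changed most evenly. Normal arrays read -3.67, -3.36 and -3.63 for it and BBN arrays -1.86 to 0.40 with a median of -0.91, well above background on all 22. The groups did not overlap. The difference was 2.66 ± 0.35 (SE), a 6.31-fold change, with a limma adjusted p of 2.62e-05. It was 2.59 ± 0.24 on the normals' scanner alone and 2.49 ± 0.41 with the scanner as a block. Within BBN, Krt5-Cre R172H spread most, at -0.11, 0.40, -1.86 and -0.95, and held both the highest and the lowest BBN array. Krt5-Cre R270H read -0.25, -0.84 and -0.69, and Upk2-Cre R172H -1.12, -0.91 and -0.55. Trp53 het read -0.18, -1.45 and -1.36. The groups with Cre alone were at -1.19 and -0.64 in Krt5-Cre and at -1.17 and -1.67 in Upk2-Cre. Both Upk2-Cre arrays lay below all arrays of Krt5-Cre R270H, Upk2-Cre R270H and Upk2-Cre R172H, differences of 2 or 3 arrays that were not tested one by one. How often other tested genes set these groups apart was not counted, and the 2 Upk2-Cre arrays were read on different scanners.

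Macrophages also make TIM-3, so macrophage markers stand beside Havcr2. Of 6 of them, 1 rose and 0 fell, Cd68 by 1.31 ± 0.31, and their median difference was 0.04 against 0.13 over all genes. On the normals' scanner 2 rose and 0 fell, where 25.6% of all tested genes were higher. These were Cd68 and C1qb, the latter by 0.95 (limma adjusted p of 0.0282), and the median of the 6 was 0.28 against 0.07 over all genes. The summed linear level of the 6 markers was 11.8 to 56.1 on BBN arrays and 13.8 to 22.9 on normal ones, ranges that overlap. Neutrophil markers rose in 3 of 3, with S100a9 up by 8.39 ± 0.98. Their part in the result was not tested.

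Lag3 had a fitted difference of 3.08 ± 0.52 (SE), with a limma adjusted p of 0.00022. Normal arrays read -6.65, -7.25 and -6.73, none of them well above background. BBN arrays ran from -4.95 to -2.12 with a median of -3.56 and were well above background in 12 of 19, including all 8 on the normals' scanner. On the normals' scanner the ranges did not overlap. The other scanner read no normal array, and only 4 of its 11 BBN readings of Lag3 were well above background. For a bound, each normal array is set to its lowest well-above-background signal, and the BBN mean is taken over all its arrays. By it Lag3 was at least 2.88-fold higher on the normals' scanner, where all 8 BBN readings were well above background. Over all 19 arrays the same calculation gave 3.08-fold. That is no strict bound, because 7 of those readings were not well above background. The highest arrays were Krt5-Cre R270H 2 at -2.12, Upk2-Cre 1 at -2.44 and Trp53 het 2 at -2.65. The 2 Krt5-Cre arrays were nearly equal, at -4.77 and -4.79. A dimmer second probe of Lag3 was well above background on 1 array only, so no difference is given for it.

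Pdcd1 was well above background on 14 of 19 BBN arrays and on 1 of 3 normal arrays. The normal arrays read -5.97, -4.79 and -5.58. BBN arrays ran from -6.07 to -0.66 with a median of -2.99, and 17 of 19 lay above all normal arrays. The difference was 2.56 ± 0.86 (SE) with a limma adjusted p of 0.0244. It missed the threshold on the normals' scanner alone (2.18 ± 0.83, limma adjusted p of 0.0649) and, at 2.06 ± 0.99 (adjusted p of 0.127), with a block for the scanner. It was also lost without normal array 1 (2.30, adjusted p of 0.110) or normal array 3 (2.49, adjusted p of 0.0888). The arrays high in Pdcd1 were Krt5-Cre R172H 2 at -0.66, Krt5-Cre R270H 1 at -0.75, Trp53 het 2 at -1.05, Krt5-Cre R270H 2 at -1.29 and Upk2-Cre 1 at -1.50. Of these 5, 4 are among the 5 highest for Cd274. At the other end, Upk2-Cre R172H 3 at -6.07 and Krt5-Cre R172H 4 at -5.23 lay within or below the normal range, and the former was the lowest array for Cd274 too.

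Tigit was well above background on 5 of 19 BBN arrays and on none of the normal arrays, which read -7.64, -7.36 and -7.89. The 5 were Krt5-Cre R172H 1 at -2.09, Krt5-Cre R270H 1 and 2 at -2.67 and -3.76, and Upk2-Cre R172H 1 and 3 at -5.17 and -3.81. BBN arrays as a whole ran from -7.96 to -2.09. The fitted difference was 2.56 ± 0.92 (SE, limma adjusted p of 0.0337). No bound is given, because only those 5 of 19 readings were well above background. The fitted value fell to 1.34 ± 0.77 (adjusted p of 0.188) on the normals' scanner and to 1.19 ± 0.85 (adjusted p of 0.312) with a block for the scanner. Leaving out normal array 1, 2 or 3 also ended the call, with adjusted p of 0.0999, 0.0831 and 0.118. Ctla4 read -7.77 to -7.24 on normal arrays and -7.99 to -6.43 on the 8 BBN arrays of the same scanner. On the 11 arrays of the other scanner it read -5.53 to -3.20. None of these spots was well above background, and they read higher on the scanner with the higher floor, so no fold of Ctla4 is given.

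Foxp3 was higher on every BBN array than on any normal one. Normal arrays read -5.71, -5.46 and -5.64, none well above background, and BBN arrays -4.18 to -2.48 with a median of -3.63.  Of the 19, 14 were well above background, among them all 8 on the normals' scanner. The difference was 2.15 ± 0.26 (SE) with a limma adjusted p of 1.12e-05. As a bound, Foxp3 was at least 3.13-fold higher on the normals' scanner. Over all 19 arrays the same calculation gave 3.81-fold, which is no strict bound, because only 14 of those readings were well above background. Group means lay between -3.93 ± 0.23 (SD, n = 3) in Upk2-Cre R172H and -2.96 ± 0.36 (SD, n = 3) in Krt5-Cre R270H. The latter read -3.05, -2.57 and -3.27, all well above background. Upk2-Cre R172H read -3.76, -4.18 and -3.84, also all above it. Those ranges did not overlap, but all Krt5-Cre R270H arrays were read on the first scanner and all Upk2-Cre R172H arrays on the second. How often other tested genes set these groups apart was not counted.

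Il2ra, unlike Foxp3, was readable in normal bladders and did not pass the test. It was well above background on all 3 normal arrays, at -3.00, -2.52 and -3.31, and on 10 of 19 BBN arrays. Those ran from -5.96 to -2.27 with a median of -4.40, and 13 of them lay below all normal arrays. On the normals' scanner 6 of 8 did so, with 7 of 8 readings well above background. On the other scanner it was 7 of 11, but only 3 of 11 readings were well above background. The lowest such signal there, -4.48 to -2.69, reached into the normal range, so undetected readings do not show a fall. The share of all tested genes with as many arrays below was not counted. The difference was -1.09 ± 0.64 (SE; 95% interval -2.43 to 0.25) with a limma adjusted p of 0.174. It was -0.97 ± 0.61 on the normals' scanner. With normexp background correction it turned to 0.10 ± 0.35. The other 6 reached the normal range or passed it, led by Krt5-Cre 1 at -2.27, Krt5-Cre R270H 1 and 2 at -2.36 and -2.70 and Upk2-Cre R270H 2 at -2.73. Within the Krt5-Cre and Upk2-Cre R270H groups, the other array stood at -4.75 and -5.67.

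**Figure D2:**
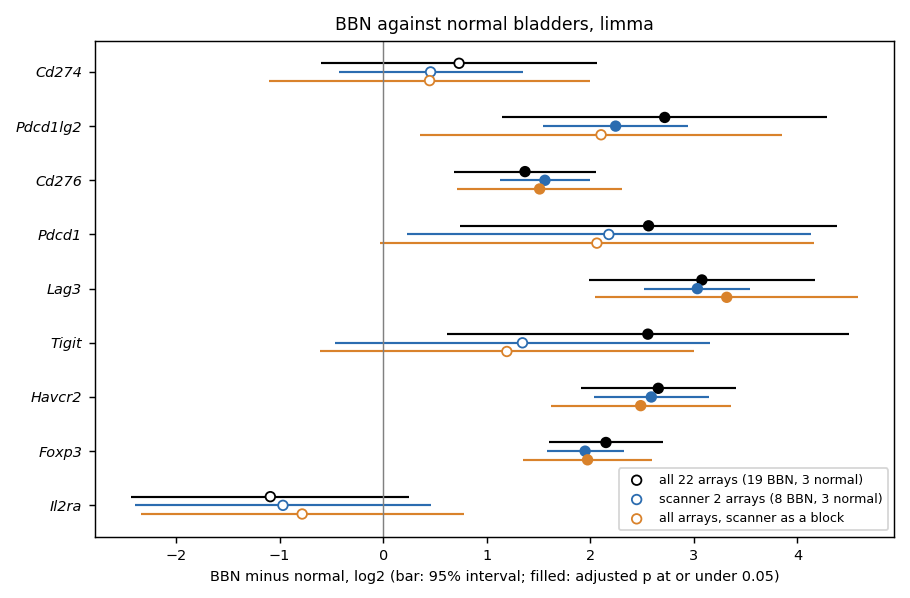
BBN minus normal difference (x axis, log2) for the 9 tested genes (y axis), as the limma estimate with its 95% interval over all 22 arrays, over the scanner 2 arrays and with the scanner as a block; filled points have an adjusted p at or under 0.05. Cd276, Lag3, Havcr2 and Foxp3 are filled in all 3 fits, while Pdcd1lg2 is open in the block fit, Pdcd1 and Tigit in all but the fit over all arrays, and Cd274 and Il2ra are open throughout.

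Restricted to the scanner that read the normal arrays, 5 members were called higher (Foxp3, Havcr2, Lag3, Cd276 and Pdcd1lg2) where 25.6% of all tested genes were higher and 47.8% were called in either direction. In those same 5, all 8 BBN arrays lay above the normal ones, as they did for 21.5% of genes. With the scanner as a block, Foxp3, Havcr2, Lag3 and Cd276 were called. Groups were also ranked by mean for each gene. Over the 10 genes there were 70 pairs of neighbouring groups, and in 8 of them (11.4%) the ranges did not overlap, against 7.84% of such pairs over all tested genes. Of the 8, 6 set the normal group against the lowest BBN group. The others were Lag3 in Krt5-Cre (-4.78 ± 0.02, SD, n = 2) below Upk2-Cre R172H (-4.19 ± 0.31, SD, n = 3), and Tigit in Upk2-Cre R270H (-4.76 ± 0.90, SD, n = 2) below Krt5-Cre R270H (-3.48 ± 0.71, SD, n = 3). In these, 1 of the 2 Krt5-Cre readings of Lag3 and 0 of the 2 Upk2-Cre R270H readings of Tigit were well above background. Pairs of BBN groups alone were apart in 2 of 60 for the members (3.33%) and in 2.91% over all tested genes.

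Other genes of the pathway, listed by function, moved both ways. Of 19 tested inhibitory receptors and ligands beyond the members, 4 rose and 3 fell, with a median difference of 0.22 against 0.13 over all genes. Arg1, the arginase by which myeloid cells deplete arginine, was not well above background on any normal array. By the calculation used for bounds it was at least 407-fold higher with BBN on the normals' scanner, and 499-fold over all 19 BBN arrays. Ceacam1, an adhesion molecule that can inhibit T cells, rose by 4.40 ± 0.54, and Nt5e, the CD73 enzyme that makes adenosine, by 2.44 ± 0.35. The 3 that fell were Nectin2, which encodes a ligand of the TIGIT family, at -1.48 ± 0.25, Cd200 at -2.16 ± 0.62 and Vsir, which encodes VISTA, at -1.12 ± 0.43. The calls of Cd200 (limma adjusted p of 0.0672) and Vsir (0.184) were lost with the scanner as a block. Pvr, the high-affinity ligand of TIGIT, read 0.06 ± 0.26 and did not pass the test.

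Co-stimulatory genes rose in 5 of 13 and fell in 1, with a median of 0.54. With the scanner as a block 1 of these calls, Tnfrsf4 (limma adjusted p of 0.176), was lost. Tnfrsf9 (4-1BB) rose by 4.02 ± 0.59 and Tnfrsf18 (GITR) by 2.49 ± 0.40, whereas Icosl, the ICOS ligand, fell by 2.10 on the log2 scale. Tnfrsf9 and Tnfrsf18 are both abundant on regulatory T cells but not limited to them. The CTLA-4 ligands Cd80 and Cd86 read 0.54 ± 0.30 and 0.25 ± 0.36 and did not pass. Of 12 other regulatory T cell genes, 3 rose and 1 fell, with a median of 0.13. Ccr8, a chemokine receptor of tissue regulatory T cells, was at least 2.02-fold higher on the normals' scanner, with 8 of 8 BBN readings well above background. Over all 19, with 13, the same calculation gave 2.53-fold, which is no strict bound. Stat5a rose by 2.19 ± 0.39 and Il2rg, the common chain of the interleukin-2 receptor, by 2.15 ± 0.48. Ikzf2, which encodes Helios, fell by 0.82 on the log2 scale. Stat5a, Il2rg and Ikzf2 are made by many other cells.

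T cell lineage genes rose in 4 of 12 and fell in 0, with a median of 1.01. Cd5 rose by 2.34 ± 0.57, Cd4 by 1.15 ± 0.32 and Cd3e by 2.23 ± 0.65. The Cd3e difference was 1.23 on the normals' scanner and, no longer called, 0.94 with the scanner as a block (limma adjusted p of 0.104). Cd3d and Cd3g, which encode other chains of the same receptor complex, read 0.18 ± 0.79 and -0.56 ± 1.03 and did not pass. Of 12 cytotoxic and exhaustion genes, 2 rose (Tnf by 2.20 ± 0.28, Prf1 by 1.33 ± 0.44) and Tbx21 fell by 1.80 on the log2 scale, with a list median of 1.11. With the scanner as a block Prf1 read 1.01 and was no longer called (limma adjusted p of 0.142). Interferon gamma response genes rose in 3 of 13 and fell in 1, with a median of 1.22. Cxcl10 rose by 3.62 ± 1.11. By the calculation used for bounds, Cxcl9 was 6.75-fold higher on the normals' scanner, with 7 of 8 BBN readings well above background. Over all 19, with 13, it was 10.9-fold higher, and neither value is a strict bound. The gene that fell was Jak1, at -0.37 ± 0.14, a call lost with the scanner as a block (limma adjusted p of 0.0906). Over all arrays these 6 lists had 21 of 81 tested genes called higher (25.9%, against 23.7% of all genes) and 7 lower. The counts were 24 and 9 on the normals' scanner, where 25.6% of all genes were higher and 22.2% lower. With the scanner as a block they were 16 and 5, and no share of all genes is given for that fit. Cxcl9 (limma adjusted p of 0.0692) and Cd8b1 (0.138) were among the calls lost under it. Among the markers of other cells, 5 of 6 urothelial and 3 of 3 fibroblast genes fell. Smooth muscle genes rose in 3 of 3 and dendritic cell genes in 1 of 3, and 0 of 3 B cell and 0 of 3 endothelial genes passed, of which Ms4a1 alone had an unadjusted limma p under 0.05. With the scanner as a block 5 of 6 urothelial and 2 of 3 smooth muscle genes were still called, but 1 of 3 fibroblast and 0 of 3 dendritic cell genes.

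**Figure D3:**
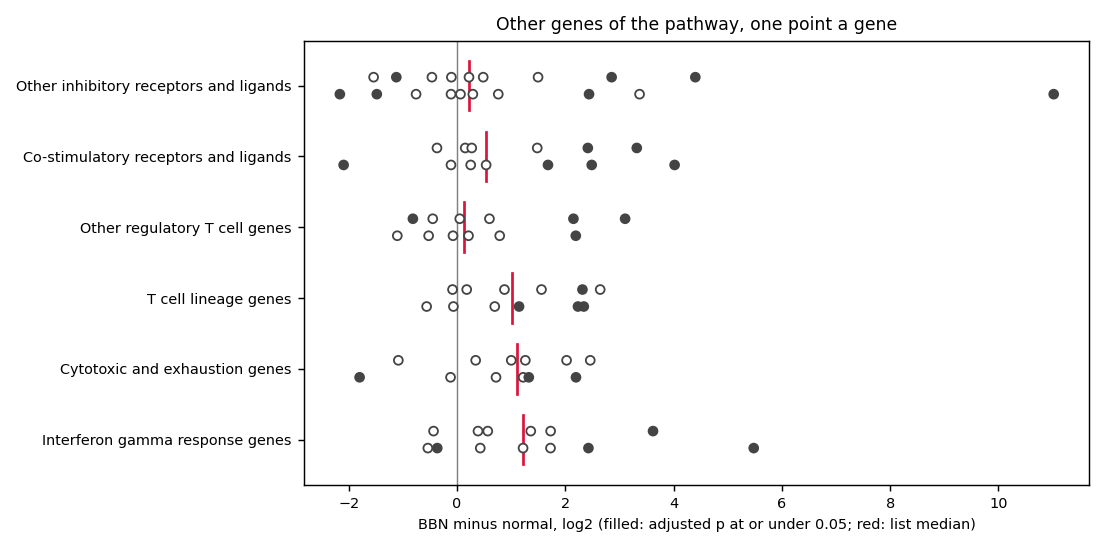
BBN minus normal difference (x axis, log2) of each tested gene of 6 lists of pathway genes (y axis); filled points have a limma adjusted p at or under 0.05 and red lines are list medians. The medians lie between 0.13 and 1.22, and Arg1 is the point at 11.02, a fitted value against normal arrays below background.

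Within the 19 BBN arrays, 8 pairs of genes were compared by Pearson's r and Spearman's rho with two-sided permutation tests, adjusted together, and the tests of 6 of them are given. The pair Foxp3 and Il2ra gave these values within BBN (r = 0.70, permutation p = 0.00099, adjusted p = 0.00264; rho = 0.57, permutation p = 0.0129, adjusted p = 0.0172). Their r was 0.64 and rho 0.43 without the 2 arrays farthest from the Foxp3 median. It was 0.88 within slides 1 and 2 (11 arrays), where Foxp3 was well above background on 6 and Il2ra on 3. Within slide 3 (8 arrays, with 8 and 7) it was 0.70. Pdcd1 and Lag3 gave r = 0.59 (permutation p = 0.00854, adjusted p = 0.0137) and rho = 0.60 (permutation p = 0.00728, adjusted p = 0.0116), with r = 0.62 without the 2 farthest, 0.71 within slides 1 and 2 and 0.44 within slide 3. Pdcd1 was well above background on 7 of 11 and 7 of 8 of those arrays, and Lag3 on 4 of 11 and 8 of 8. Pdcd1 followed Cd3e, a chain of the T cell receptor complex, with r = 0.64 (permutation p = 0.00321, adjusted p = 0.00642) and rho = 0.61 (permutation p = 0.00664, adjusted p = 0.0116). That r was 0.54 without the 2 farthest, 0.57 within slides 1 and 2 and 0.80 within slide 3. Cd3e read higher on every BBN array of slides 1 and 2 than on any of slide 3, and the part of this in the relations over all 19 arrays was not tested.

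**Figure D4:**
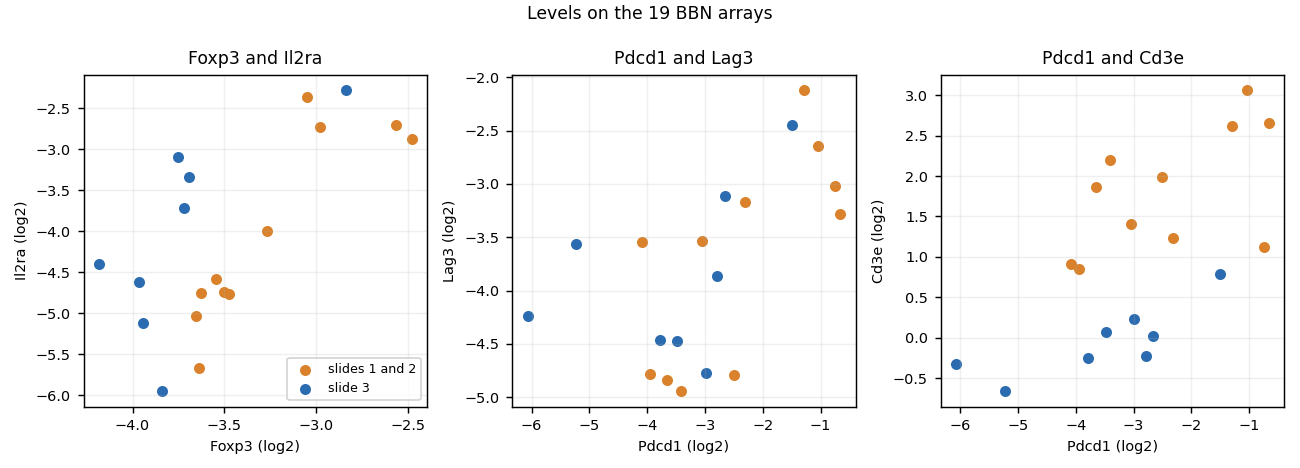
Levels (log2 relative to the 75th percentile of the array) of 3 pairs of genes on the 19 BBN arrays, coloured by slide; each point is an array. Over the 19 arrays r is 0.70 for Foxp3 and Il2ra, 0.59 for Pdcd1 and Lag3 and 0.64 for Pdcd1 and Cd3e.

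Foxp3 and Cd3e gave r = 0.57 (permutation p = 0.0103, adjusted p = 0.0137) and rho = 0.71 (permutation p = 0.00085, adjusted p = 0.0034). Without the 2 farthest arrays r was 0.36 and rho 0.64, and r was 0.28 within slides 1 and 2 and 0.36 within slide 3. Cd276 and Cd3e gave r = -0.33 (permutation p = 0.172, adjusted p = 0.196) and rho = -0.30 (permutation p = 0.213, adjusted p = 0.243). Their r was -0.36 without the 2 farthest, -0.12 within slides 1 and 2 and -0.51 within slide 3. Pdcd1 and Havcr2 gave r = 0.08 (permutation p = 0.738, adjusted p = 0.738) and rho = -0.02 (permutation p = 0.940, adjusted p = 0.940), with r = -0.06 without the 2 farthest, 0.33 within slides 1 and 2 and -0.54 within slide 3. Cd274 and Pdcd1 were set side by side after their levels were seen, so their test is not given. It was still among the 8 adjusted together and so enters the adjusted p of the other pairs. Their r was 0.77, or 0.65 without the 2 arrays farthest from the Cd274 median, 0.74 within slides 1 and 2 and 0.83 within slide 3. Pairs with Ctla4, Tigit or Pdcd1lg2 were not computed, because those genes were well above background on fewer than 10 of the 19 arrays.

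The genes most like 3 of the members were then read off over the 19 BBN arrays, among 14646 genes well above background on at least 10 of them, as a description and with no test. For Cd274 they were the interferon-inducible GTPases Iigp1 (r = 0.89), Irgm1 (0.88) and Igtp (0.88), with r between 0.88 and 0.94 within each set of slides. For Foxp3 they were Srf, a transcription factor of cytoskeletal genes (r = 0.87), Rab37 (0.84) and Ptprcap, a partner of the leukocyte phosphatase CD45 (0.84). The r of Foxp3 and Srf was 0.73 within slides 1 and 2 and 0.97 within slide 3. For Cd276 they were Ckap4 (r = 0.84), Mob3c (0.82) and Fnip2 (0.80), of which Ckap4 and Fnip2 had r of 0.25 and 0.42 within slide 3. The arrays share slides and scanners, so these r are not independent of them.

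The study's own question was whether a Trp53 mutation acts differently in basal and in luminal cells. In the 6 contrasts among BBN groups, 0 of the 9 tested members were called by limma, and at an unadjusted p under 0.05 there was 1, Foxp3 between the alleles. For the Krt5-Cre mutants against Krt5-Cre, 0.0115% of all genes were called, with 836 at an unadjusted p under 0.05. The member of smallest p was Lag3, at 1.28 ± 0.66 (SE; 95% interval -0.12 to 2.68, limma adjusted p of 0.9997). With the slide as a block it was 1.83 ± 0.65 (adjusted p of 0.313). Intervals for the brighter members were -1.23 to 2.20 for Cd274, -0.47 to 1.29 for Cd276 and -0.66 to 1.27 for Havcr2, so changes of 2-fold in either direction for Cd274, and rises of that size for the others, lie within them.

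For the Upk2-Cre mutants against Upk2-Cre, 0.00575% of genes were called (1094 at an unadjusted p under 0.05). Cd276 had the smallest p, at 0.75 ± 0.44 (SE; 95% interval -0.17 to 1.67, limma adjusted p of 0.842), and 0.27 ± 0.43 with the slide as a block. The test of the difference between the drivers called 0.0% of genes (578 at an unadjusted p under 0.05). Lag3 led with 1.36 ± 0.96 (SE; limma adjusted p of 0.998). On the normals' scanner, where the Krt5-Cre and Upk2-Cre groups have 1 array each, that value was 3.18 ± 0.52 (limma adjusted p of 0.0792), and over all arrays it was 0.11 without Upk2-Cre 1 and 2.61 without Upk2-Cre 2, arrays that stood at -2.44 and -4.95.

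Krt5-Cre mutants and Upk2-Cre mutants, compared directly, differed in 0.00575% of genes (922 at an unadjusted p under 0.05). Foxp3 had the smallest p among the members, at 0.43 ± 0.25 (SE; 95% interval -0.09 to 0.96, limma adjusted p of 0.886), and 0.10 ± 0.21 on the normals' scanner. Cd276 was level, at -0.00 ± 0.31 (95% interval -0.65 to 0.65). Between the R270H and the R172H groups 0.0% of genes were called (1708 at an unadjusted p under 0.05). Without Krt5-Cre R270H 3 there were 134 such genes, with 0 of the members among them, and without any other array of these groups 0 to 4. Foxp3 read 0.53 ± 0.25 (SE; 95% interval 0.01 to 1.06), with an unadjusted limma p of 0.0476 and an adjusted p of 0.500. With the slide as a block it was 0.28 ± 0.32, and no R270H array was read on the normals' scanner. Cd276 went the other way, at -0.63 ± 0.31 (adjusted p of 0.525). Trp53 het bladders against the groups with Cre alone also had 0.0% of genes called (841 at an unadjusted p under 0.05), with Il2ra first at -1.04 ± 0.78 (SE; limma adjusted p of 0.9998).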

How the data were processed

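Each sample is 1 one-colour array. The authors' spot intensities come from Agilent Feature Extraction 11.0.1.1, per the file headers; the submitters' processing notes name 9.1 and limma. A further deposited table gives log2 values that share 1 distribution over arrays, as its columns show. Here log2 of the processed signal was taken minus the 75th percentile of each array. Flagged spots (53 to 301 an array) were left out, and spots of a probe averaged. Probes were named through RefSeq accessions (32994 of 56605 matched 1 symbol, 23611 none). The brightest probe stood for a gene. Genes well above background on at least 2 of 22 arrays were tested (17404), with limma 3.58.1 in R 4.3.3 on 8 group means and 7 contrasts, Benjamini-Hochberg adjusted within a contrast. Relations used 100000 resamples in Python 3.11.15 with scipy 1.17.1. The fit was tested on simulated data.

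Members and the 14 lists (124 genes, 111 tested; Hhla2, Cxcl11 and Ly6g had no named probe) were chosen with earlier results of these data known. Named were all members, the member of smallest p in other contrasts, up to 3 called genes of smallest p per list and the 3 most alike genes; other list genes were named after their values were seen. Depth does not apply to arrays, and the number of arrays limits the precision. The alternatives were background correction (normexp, offset 50), normalization, the deposited table, filters, probe averaging, the arrays fitted, blocks for slide, scanner and replicate number, sex covariates, shared animal codes and each array left out. Proteins and the Lag3 promoter were not analysed here, and 1 list gene and its relation are not reported here.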

Additional observations from a re-analysis of the deposited data

How the results depend on the processing

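The count of 7 members called between BBN and normal was 4 of 9 with quantile normalization, 4 of 9 with the scanner as a block, 2 of 5 tested in the deposited normalized table and 2 of 3 tested when well above background on all arrays was required. Leaving out 1 array at a time gave 5 to 7, with 5059 to 8142 of all tested genes called. For the other fits of this section the share of all tested genes called is not given. Their counts therefore do not set the members apart from other genes. A common floor on all arrays, chosen after seeing the data, gave 2 of 9, since at -2.69 it lies above most readings of the dim members. Havcr2 and Cd276 were called under every alternative run, and Foxp3 and Lag3 in all that tested them but the common floor. Pdcd1 was no longer called under 9 alternatives and Tigit under 11, scanner, slide and Xist-minus-Y settings among them. Il2ra turned to 0.10 with normexp background correction and Foxp3 between the alleles to -0.0054 with the common floor. The r of Pdcd1 and Havcr2 turned to -0.058 without the 2 farthest arrays and -0.54 within slide 3; the cause was not tested. Without the background filter Ctla4 was fitted too and was not called. Counts in the other 6 contrasts were 0 under every alternative run, and with 1 array left out 0 to 0. Same-numbered arrays of different groups did not deviate together (median r of 0.03 over 66 pairs, -0.01 over 144 others), so the numbers pair nothing; with a replicate block 7 members were called between BBN and normal and 0 elsewhere. Slide could only be a random block for BBN against normal, and the alleles could not be compared on the normals' scanner, which read no R270H array. Signal over background limits Ctla4, Tigit and Pdcd1lg2 most.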
